A study of Mus musculus with 6 samples.

Results

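Sarcomere and muscle excitation genes encode the contractile apparatus of skeletal muscle and the proteins that couple nerve input to contraction. They were taken here as the rows of the deposited RNA-seq tables whose symbol was in a list of 41 genes, out of 22989 rows in each table, and all 41 were found as rows of their own. The list holds troponins, myosin chains, tropomyosins, Z-disc and M-band proteins, calcium-handling proteins, acetylcholine receptor subunits, 2 metabolic proteins and a cadherin. Polyadenylated RNA was profiled in C2C12 cells, an immortalised line of mouse myoblasts (strain label C3H), in 3 libraries. One came from siNS cells starved for 4 h in HBSS, a salt solution without amino acids or serum, supplemented with HEPES, penicillin and streptomycin (the starved library). Another came from non-starved cells given siFoxk1 (the Foxk1 knockdown library), and the last from non-starved siNS cells (the control library). siNS is the siRNA name in the labels of both the starved and the control library, so those 2 share a siRNA and differ in starvation, whereas the knockdown library differs from the control in its siRNA. The question stated for the series was how expression differs with starvation and with loss of Foxk1, a forkhead transcription factor.

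In proliferating myoblasts most sarcomere genes are kept low. When cells leave the cell cycle, myogenic factors such as MyoD and myogenin bind E-box sequences near these genes, and embryonic, fast and slow isoforms of each sarcomere protein appear as myotubes form. Thin filaments slide past thick filaments when calcium, released from the sarcoplasmic reticulum after the membrane is depolarised at the acetylcholine receptor, binds troponin C.

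Each group had 1 library, so there is no spread between replicates, no test was possible and no difference has a replicate check. The deposited values are FPKM, a level scaled to transcript length and to the fragments of the library, with 95% limits, and nothing in the tables gives the depth. For the genes described here that passed the filter on low values, the half-width of the interval had a median of 22.9%, 21.7% and 22.6% of the value in the starved, knockdown and control libraries. Foxk1 was at 16.1 FPKM (13.3 to 18.9) in the starved library and 5.15 FPKM (4.29 to 6.02) in the knockdown library, against 9.09 FPKM (7.76 to 10.4) in the control library, so the siRNA target was lower in the library labelled for it and higher in the starved one. Myoblast markers were present in every library, with the desmin gene Des at 403 FPKM in the starved, 520.0 FPKM in the knockdown and 485 FPKM in the control library, and the satellite cell gene Pax7 at 9.99, 9.57 and 7.92 FPKM in the same order. Other myoblast markers differed in the starved library. Myf5 was higher there, at 29.6 FPKM against 16.8 FPKM in the control, and Myod1 was lower, at 10.7 against 70.1 FPKM. Neither interval overlapped that of the control, beside 11.9% higher and 11.1% lower of all rows that passed the filter. In the knockdown library the intervals of all 6 myoblast markers found overlapped the control. Endothelial markers summed to 0.430 FPKM or less in every library.

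Most of the 41 genes had higher values in the knockdown library than in the control, and the starved library showed no such shift. A gene is counted here as 2-fold higher or lower on the scale log2((FPKM + 1)/(control FPKM + 1)), among rows with a mean of at least 1 FPKM over the 3 libraries, and 28 of the 41 genes passed that filter. In the knockdown library 10 of the 28 were 2-fold higher, beside 2.57% of all 10951 rows that passed, and 0 were 2-fold lower, beside 1.42%. The 10 include Ckm, which passed the filter through the knockdown library, so it had to be higher there. In the starved library 0 of the 28 were 2-fold higher, beside 3.08% of all rows, and 1 was 2-fold lower, beside 2.96%. The 28 genes had a median log2 fold change of -0.05 for the starved library and 0.76 for the knockdown library, where the medians of all rows were -0.01 and 0.01. Both comparisons use the same control library. The 41 genes were chosen with earlier results of these data known, so the counts describe them and are not an independent check. With a pseudocount of 5 in place of 1, 5 genes were 2-fold higher in the knockdown library, namely Tnnt1, Tnnt3, Tnni1, Myl1 and Mylpf.

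**Figure D1:**
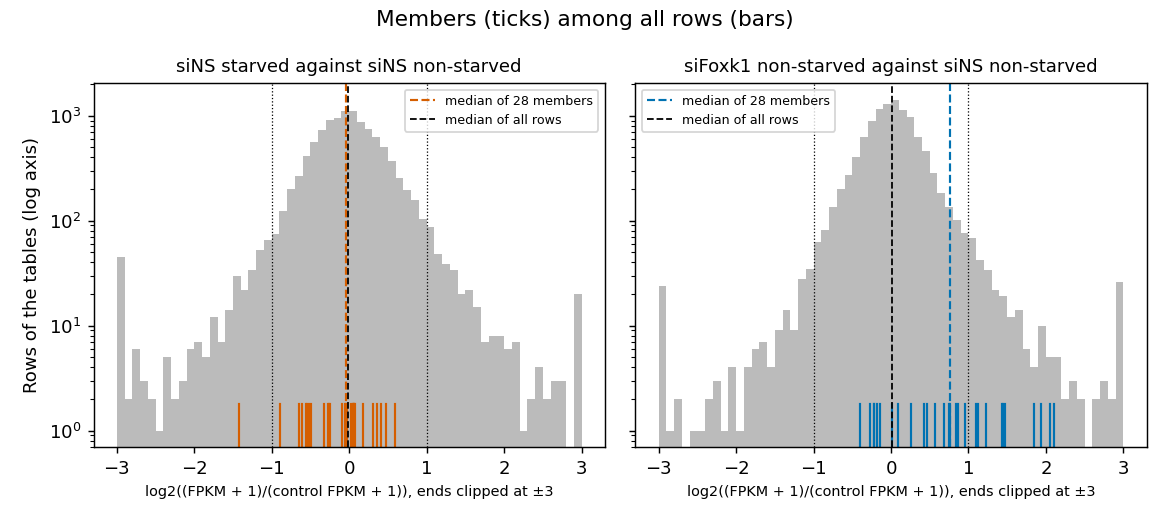
Histogram of log2 fold changes of all 10951 rows with a mean of at least 1 FPKM (grey, log axis), with the 28 listed genes as coloured ticks, dashed medians and dotted lines at 2-fold. The ticks of the starved library lie around 0, whereas those of the knockdown library extend to 2.11 with a median of 0.76.

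A gene's deposited interval may also lie apart from that of the control, which compares libraries and not conditions. By that measure 16 of the 28 genes were higher in the knockdown library, beside 8.78% of all rows, and 0 were lower, beside 7.06%. The 16 also include Ckm, which passed the filter through the knockdown library. In the starved library 0 of the 28 were higher, beside 11.9%, and 4 were lower, beside 11.1%, namely Tnnt2, Tpm1, Tpm2 and Smyd1. Over all 41 genes without a filter, the plain ratio to the control was above 1 for 16 genes in the starved and for 35 genes in the knockdown library, with medians of 0.940 and 2.13. The plain ratio was not computed over all rows. Among rows that passed the filter, the log2 fold change was above 0 for 12 of the 28 genes in the starved library, beside 5283 of 10951 rows. In the knockdown library it was above 0 for 22 of the 28, beside 5671 of 10951 rows. The genes 2-fold higher in the knockdown library had control levels between 0.324 and 12.7 FPKM. Of the 8 genes at 20 FPKM or more in the control, 0 were 2-fold higher in the knockdown library, a count near the 2.57% of all rows. Of the same 8, Tpm1, Tpm2 and Actn3 were higher there with intervals apart, beside 8.78% of all rows. They were at 1.94, 1.71 and 1.40 times the control. Tnnt2, Cryab, Chrna1, Chrnb1 and Cdh15 had lower values there, with overlapping intervals. A library of cultured cells holds many cells, so more cells expressing a gene and more RNA per cell cannot be told apart.

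**Figure D2:**
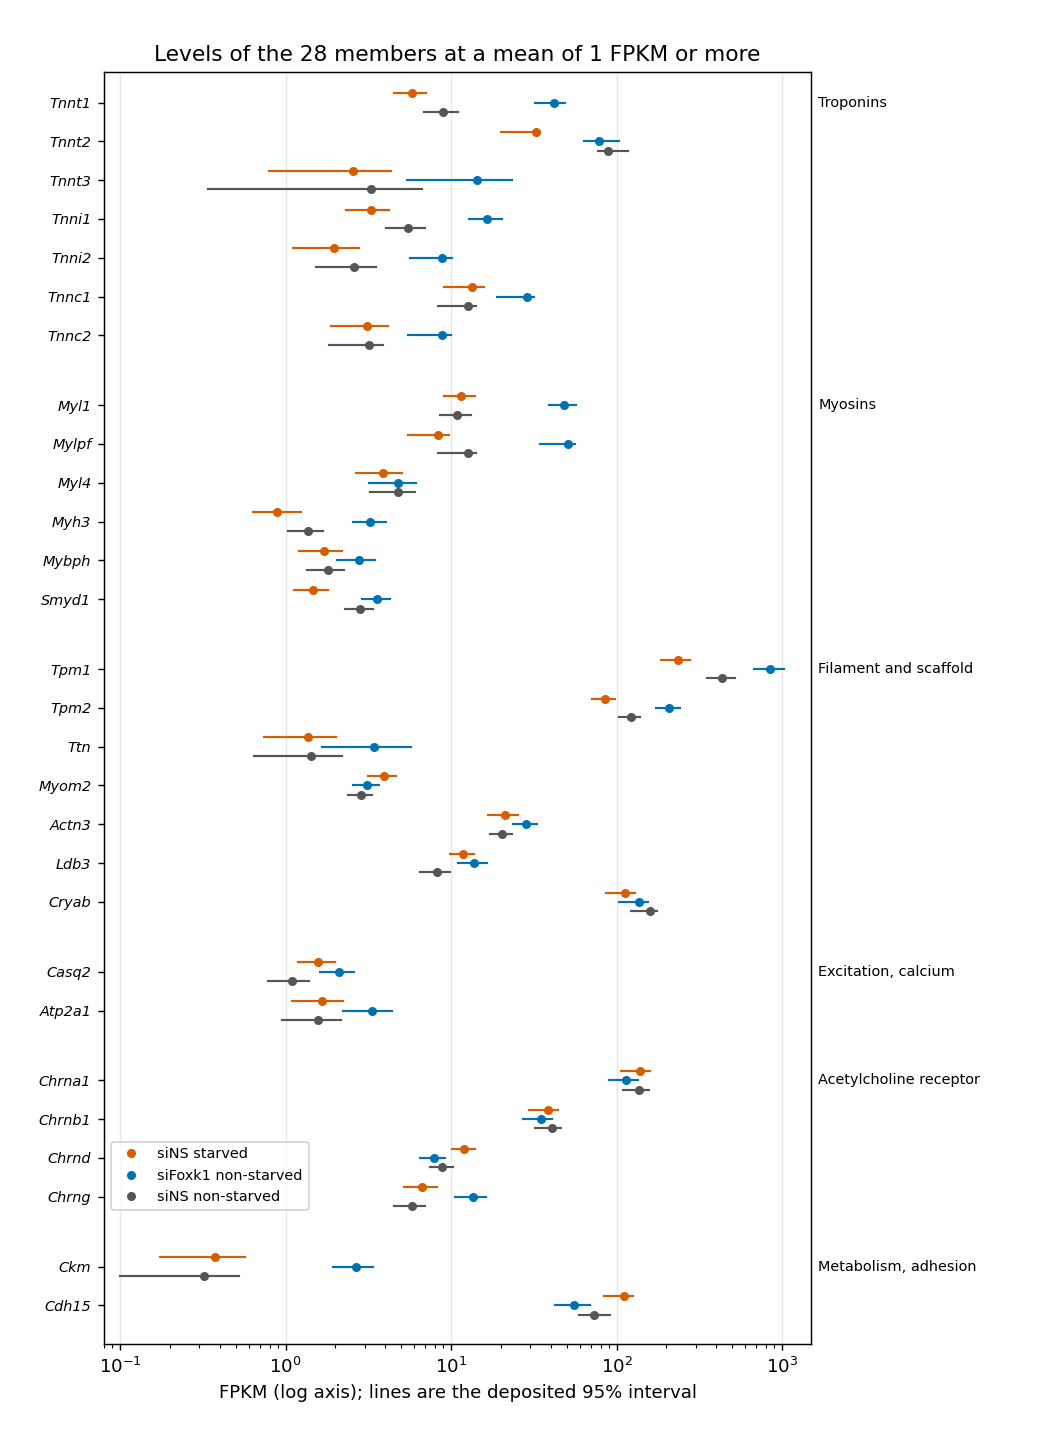
FPKM (log axis) of the 28 genes with a mean of at least 1 FPKM in the starved (orange), Foxk1 knockdown (blue) and control (grey) libraries, 1 library per group, with the deposited 95% intervals as lines. The blue points stand right of the grey ones for most troponins and for Myl1 and Mylpf, and left of or near them for Chrna1, Chrnb1, Chrnd and Cdh15.

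Troponin genes held the largest shift as a group, with 6 of 7 being 2-fold higher in the knockdown library, beside 2.57% of all rows. By intervals 5 of the 7 were higher there, beside 8.78% of all rows. Troponin T anchors the troponin complex to tropomyosin. Its slow skeletal isoform gene Tnnt1 was at 5.78 FPKM (4.51 to 7.02) in the starved and 42.0 FPKM (32.4 to 49) in the knockdown library, against 8.99 FPKM (6.85 to 11) in the control. Its log2 fold change of 2.11 in the knockdown library was rank 44 from the top of 10951 rows, and the starved interval overlapped that of the control. Tnnt3, the fast isoform gene, was at 2.56 FPKM (0.80 to 4.33) in the starved and 14.3 FPKM (5.40 to 23.5) in the knockdown library, against 3.27 FPKM (0.339 to 6.68) in the control. These wide intervals overlapped, although the knockdown value was 4.38 times the control value.

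Tnnt2, the isoform of heart and of embryonic skeletal muscle, had its low value in the starved library. It was at 32.4 FPKM (19.9 to 32.9) in the starved and 77.9 FPKM (63.9 to 104) in the knockdown library, against 88.4 FPKM (76.8 to 116) in the control. The starved library stood below the control (log2 fold change -1.42, intervals apart), the lowest fold change of the 28 genes in either comparison, while the knockdown and control intervals overlapped. Because FPKM is per length, the isoforms can be set against each other within a library. Of the troponin T FPKM, Tnnt2 made up 79.5% after starvation and 58.0% with Foxk1 knockdown, against 87.8% in the control. The deposited limits allow 63.7% to 86.1% in the starved, 46.8% to 73.4% in the knockdown and 81.3% to 94.2% in the control library, so the knockdown range lay below that of the control and the starved range overlapped both. Tnnt1 made up 14.2%, 31.3% and 8.93% in the starved, knockdown and control libraries.

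Troponin I is the inhibitory subunit, and both of its listed genes were higher in the knockdown library. The slow isoform gene Tnni1 was at 3.27 FPKM (2.31 to 4.22) in the starved and 16.6 FPKM (12.8 to 20.4) in the knockdown library, against 5.49 FPKM (4.05 to 6.94) in the control. Tnni2, the fast isoform gene, was at 1.96 FPKM (1.10 to 2.79) in the starved and 8.84 FPKM (5.63 to 10.2) in the knockdown library, against 2.60 FPKM (1.54 to 3.50) in the control. In both genes the knockdown library stood apart and the starved library did not. Tnni1 held 62.4%, 65.2% and 67.9% of the summed FPKM of Tnni1 and Tnni2 in the starved, knockdown and control libraries. A further troponin I gene, Tnni3, is not among the listed genes and is left out of these shares. It was at 1.04, 1.90 and 1.03 FPKM in the same order, with intervals that overlapped the control. In the RefSeq gene order (assembly GRCm38.p6) Tnni1 and Tnnt2 have 1 coding gene between them on chromosome 1, as do Tnni2 and Tnnt3 on chromosome 7. The pair Tnni1 and Tnnt2 had log2 fold changes of 1.44 and -0.18 in the knockdown library, whereas Tnni2 and Tnnt3 had 1.45 and 1.85.

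The calcium sensor troponin C showed a smaller difference. Tnnc1, which slow and cardiac muscle use, was at 13.3 FPKM (9.08 to 15.9) in the starved and 28.9 FPKM (18.9 to 31.8) in the knockdown library, against 12.7 FPKM (8.35 to 14.1) in the control. Tnnc2, the fast isoform gene, was at 3.11 FPKM (1.88 to 4.16) in the starved and 8.84 FPKM (5.47 to 9.98) in the knockdown library, against 3.21 FPKM (1.84 to 3.88) in the control. The knockdown library was 2.27 and 2.75 times the control for Tnnc1 and Tnnc2, with intervals apart, and the starved ratios were 1.05 and 0.967.

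**Figure D3:**
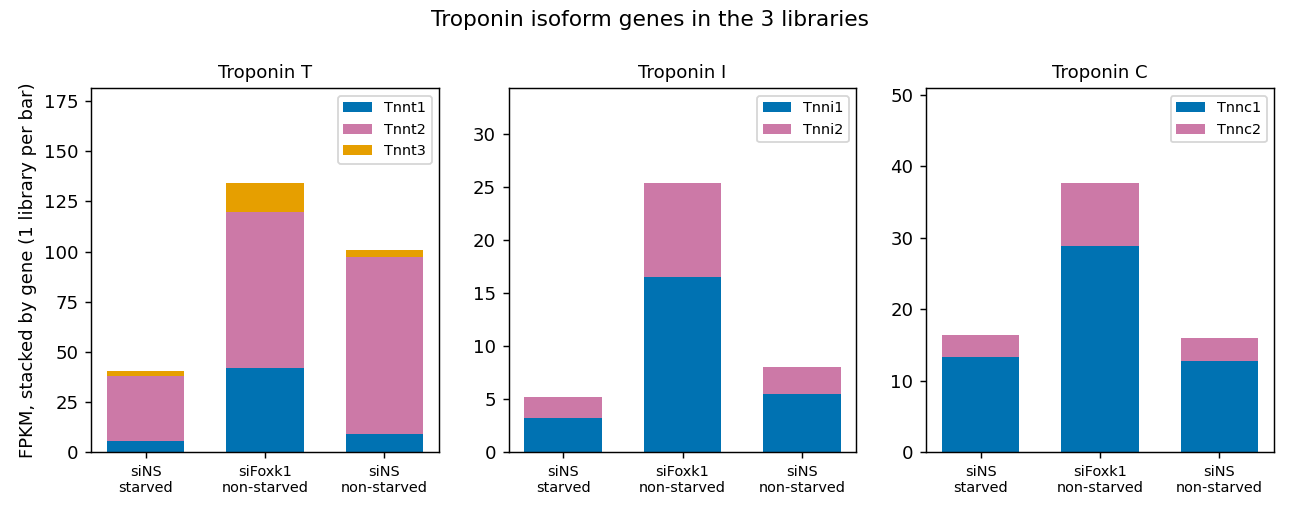
FPKM of troponin T, I and C genes stacked by isoform in the starved, Foxk1 knockdown and control libraries, 1 library per bar and no error shown. Tnnt2 fills 79.5%, 58.0% and 87.8% of the troponin T bars in that order, while the troponin I and C bars are highest in the knockdown library with similar proportions in all 3.

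Myosin light chains sit on the neck of the myosin head. The essential light chain gene Myl1 was at 11.5 FPKM (9.11 to 13.9) in the starved and 48.2 FPKM (39.2 to 57.2) in the knockdown library, against 10.8 FPKM (8.56 to 13.1) in the control. Mylpf, the fast regulatory light chain gene, was at 8.29 FPKM (5.53 to 9.75) in the starved and 51.2 FPKM (34.5 to 56.1) in the knockdown library, against 12.6 FPKM (8.38 to 14.1) in the control. The knockdown library was high for both, with log2 fold changes of 2.05 and 1.94, and the starved intervals overlapped those of the control. Myl4, the embryonic and atrial light chain gene, had 3.86 FPKM in the starved, 4.81 FPKM in the knockdown and 4.75 FPKM in the control library, all intervals overlapping. Its share of the FPKM of the 3 light chain genes was 16.3% after starvation and 4.62% with Foxk1 knockdown, against 16.9% in the control.

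The genes of the myosin heavy chains, the motor proteins themselves, were at 3.24 FPKM or less in every library. The genes share long similar stretches, and how reads common to several of them were assigned is not given in the sources used here. Embryonic Myh3 was the highest, at 0.884 FPKM (0.638 to 1.23) in the starved and 3.24 FPKM (2.55 to 4.04) in the knockdown library, against 1.36 FPKM (1.04 to 1.69) in the control, and the knockdown interval was apart. Myh1, an adult fast isoform gene, was at 0.159, 0.720 and 0.212 FPKM in the starved, knockdown and control libraries, and the knockdown interval was again apart. Myh2, Myh7 and Myh8 were between 0.0128 and 0.284 FPKM in all 3 libraries with overlapping intervals. Myh3 made up 72.5%, 74.5% and 73.8% of the heavy chain FPKM in the starved, knockdown and control libraries. Smyd1, a muscle methyltransferase needed for myosin assembly, was at 1.46 FPKM (1.12 to 1.79) in the starved library, 3.58 FPKM (2.90 to 4.27) in the knockdown library and 2.83 FPKM (2.30 to 3.37) in the control, with the starved library apart. Mybph, which encodes the myosin-binding protein H, was at 1.71, 2.78 and 1.82 FPKM in the same order, with overlapping intervals.

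The promoters of 4 of the genes with log2 fold changes of 1.44 or more in the knockdown library are shown because E-boxes are the known binding letters of MyoD and myogenin. Each window runs from 250 bases before the annotated start of the gene, and is 300 bases long, from RefSeq on build GRCm38.p6, written 5′ to 3′ on the strand of the gene. Capitals mark every E-box, searched as CANNTG, which reads the same on both strands. Tnnt1 lies on the minus strand at chr7:4515926-4516225, Tnni1 on the plus strand at chr1:135799171-135799470 (the first of its 2 windows), Myl1 on the minus strand at chr1:66945007-66945306 and Mylpf on the plus strand at chr7:127211358-127211657.
Tnnt1: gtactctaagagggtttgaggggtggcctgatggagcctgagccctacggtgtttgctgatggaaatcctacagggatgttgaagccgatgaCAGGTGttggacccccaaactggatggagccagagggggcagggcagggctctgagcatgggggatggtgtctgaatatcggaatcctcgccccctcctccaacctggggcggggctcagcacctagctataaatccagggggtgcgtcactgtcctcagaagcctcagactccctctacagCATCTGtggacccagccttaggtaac
Tnni1: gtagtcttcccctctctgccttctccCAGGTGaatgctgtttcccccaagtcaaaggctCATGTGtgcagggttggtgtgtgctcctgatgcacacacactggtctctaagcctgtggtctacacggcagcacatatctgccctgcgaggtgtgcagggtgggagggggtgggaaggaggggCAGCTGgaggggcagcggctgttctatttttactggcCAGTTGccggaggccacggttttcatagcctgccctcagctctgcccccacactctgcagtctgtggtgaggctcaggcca
Myl1: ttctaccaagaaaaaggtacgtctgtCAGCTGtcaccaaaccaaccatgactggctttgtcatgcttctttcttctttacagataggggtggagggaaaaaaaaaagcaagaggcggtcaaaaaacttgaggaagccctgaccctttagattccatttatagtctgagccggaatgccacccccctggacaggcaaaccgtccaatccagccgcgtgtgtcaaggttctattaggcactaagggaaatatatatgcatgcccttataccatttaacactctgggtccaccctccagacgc
Mylpf: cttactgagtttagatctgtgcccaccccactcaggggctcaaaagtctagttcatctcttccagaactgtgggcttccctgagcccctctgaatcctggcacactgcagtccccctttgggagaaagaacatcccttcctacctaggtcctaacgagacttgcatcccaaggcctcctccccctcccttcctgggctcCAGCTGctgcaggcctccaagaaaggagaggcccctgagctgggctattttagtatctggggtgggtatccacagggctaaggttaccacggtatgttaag

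The form CAGCTG, part of the wider CANNTG search, is one that MyoD and myogenin bind. It began at position -68 from the annotated start of Tnni1, -224 from that of Myl1 and -51 from that of Mylpf, and was not among the letters of the Tnnt1 window. In all, 33 of the 41 genes matched a promoter window by symbol, with 39 windows. CAGCTG was in 16 of the 39 windows (41%), and in 16.3% of all 32851 windows of the table. Of the 14 listed genes with CAGCTG in a window, 5 were 2-fold higher in the knockdown library. The others, among them Chrna1 and Tnnt2, were not. Any E-box was in 32 of the 39 (82.1%), and in 72.3% of all windows. All motifs were searched on both strands. The forkhead core GTAAACA was in 0 of the 39 windows and in 3.65% of all. The MEF2 box was in 1 window, that of Ttn (2.56%, against 0.557% of all), and the CArG box in 3 windows of Ldb3 and Myom1 (7.69%, against 1.63% of all). These are counts of letters in short windows and say nothing of binding.

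**Figure D4:**
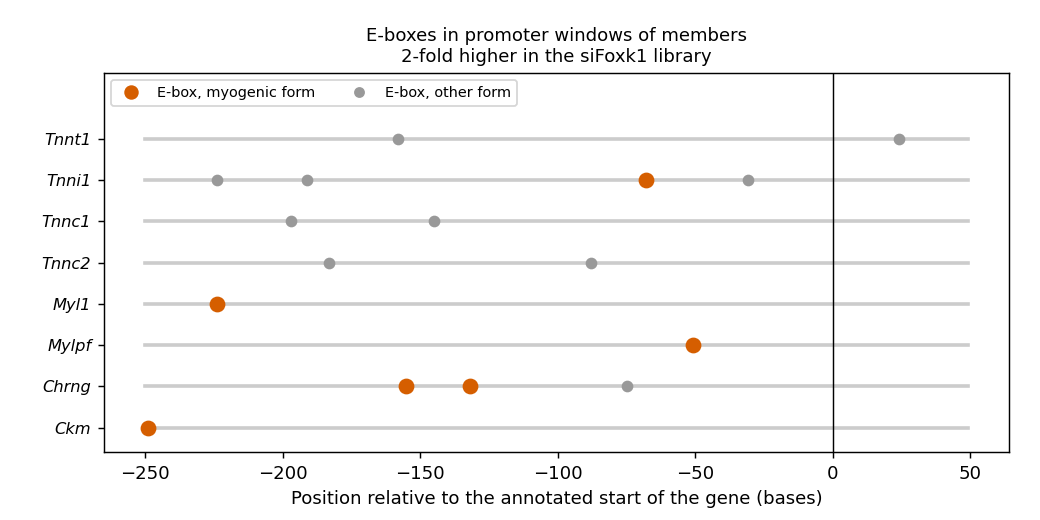
Positions of E-boxes in bases from the annotated start of the gene (vertical line at 0) in promoter windows of the 8 genes that were 2-fold higher in the knockdown library and had a window, with the first window shown for Tnni1. Each of the 8 windows holds at least 1 E-box, and those of Tnni1, Myl1, Mylpf, Chrng and Ckm hold the CAGCTG form (orange). An E-box is in 72.3% of all windows and in 82.1% of those of the listed genes, and CAGCTG in 16.3% and 41%.

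Tropomyosins cover the myosin-binding sites of actin until calcium moves them away, and Tpm1 had the highest level of the 41 genes in every library. Tpm1 was at 234 FPKM (186 to 279) in the starved and 844 FPKM (674 to 1022) in the knockdown library, against 434 FPKM (351 to 519) in the control. Tpm2 was at 84.6 FPKM (71.0 to 98.2) in the starved and 207 FPKM (173 to 241) in the knockdown library, against 121 FPKM (104 to 139) in the control. Both genes were low in the starved and high in the knockdown library, with intervals apart in each comparison. Both also make non-muscle isoforms by splicing, and the rows do not separate these. Tpm1 alone accounted for 26.8%, 47.2% and 36.8% of the summed FPKM of the 41 genes in the starved, knockdown and control libraries. Without it the sum was 0.859 times the control in the starved and 1.27 times the control in the knockdown library.

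The other filament and scaffold genes encode proteins of the Z-disc and M-band and giant scaffold proteins. Together with Tpm1 and Tpm2, 7 genes of this group passed the filter, and 0 of them were 2-fold higher or lower. These counts are near the 3.08% higher and 2.96% lower of all rows in the starved library, and the 2.57% and 1.42% in the knockdown library. Actn3, the fast-fibre alpha-actinin gene, was at 21.1 FPKM (16.8 to 25.5) in the starved and 28.5 FPKM (23.8 to 33.2) in the knockdown library, against 20.3 FPKM (17.2 to 23.4) in the control. Ldb3, which encodes a Z-disc PDZ protein, was at 11.8 FPKM (9.82 to 13.9) in the starved and 13.8 FPKM (11.1 to 16.5) in the knockdown library, against 8.20 FPKM (6.50 to 9.90) in the control. For both genes the knockdown library was apart from the control and the starved library overlapped it. Cryab, a small heat shock protein of the Z-disc, was at 113 FPKM (86.8 to 129) in the starved and 137 FPKM (104 to 155) in the knockdown library, against 160.2 FPKM (123 to 175) in the control, all overlapping.

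The giant spring protein gene Ttn was at 1.37 FPKM (0.740 to 2.01) in the starved and 3.41 FPKM (1.66 to 5.70) in the knockdown library, against 1.42 FPKM (0.647 to 2.20) in the control. Its intervals overlapped, although the knockdown value was 2.40 times the control. Neb, the nebulin gene, whose protein runs along the thin filament, was at 0.190 FPKM (0.14 to 0.241) in the starved and 1.08 FPKM (0.850 to 1.33) in the knockdown library, against 0.273 FPKM (0.205 to 0.343) in the control, and here too the knockdown interval was apart. The M-band genes Myom1 and Myom2 had knockdown ratios of 2.23 and 1.09, and Myom1 was apart at a level of 0.533 FPKM. Actn2 and Tcap, which encode Z-disc proteins, were at 0.245 FPKM or less in every library.

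The 6 excitation and calcium genes among the 41 were low in all 3 libraries, at 3.32 FPKM or less. The dihydropyridine receptor gene Cacna1s, which encodes the voltage sensor, was at 0.13 FPKM (0.0773 to 0.186) in the starved and 0.658 FPKM (0.475 to 0.842) in the knockdown library, against 0.157 FPKM (0.0886 to 0.225) in the control. Ryr1, the calcium release channel gene, was at 0.556 FPKM (0.428 to 0.681) in the starved and 1.40 FPKM (1.10 to 1.72) in the knockdown library, against 0.455 FPKM (0.337 to 0.575) in the control. Both were high in the knockdown library with intervals apart, yet did not pass the filter of 1 FPKM on average. The calcium pump gene Atp2a1 was at 1.66, 3.32 and 1.56 FPKM in the starved, knockdown and control libraries, and the calcium store gene Casq2 at 1.58, 2.1 and 1.09 FPKM. For these genes, too, the knockdown interval was apart and the starved one overlapped. Casq1 was between 0.105 and 0.141 FPKM, and the caveolin gene Cav3 at 0.0513, 0.430 and 0.134 FPKM in the same order, with overlapping intervals.

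The acetylcholine receptor of fetal muscle is built from alpha, beta, delta and gamma subunits. Of these 4 genes 1 had an interval apart from the control, higher in the knockdown library, beside 8.78% of all rows. Chrng, which encodes the gamma subunit, was at 6.69 FPKM (5.18 to 8.20) in the starved and 13.5 FPKM (10.6 to 16.2) in the knockdown library, against 5.77 FPKM (4.49 to 6.94) in the control. The knockdown library was high and apart, at 2.34 times the control. Chrna1, for the alpha subunit, was at 139 FPKM (107 to 160.4) in the starved and 113 FPKM (89.7 to 134) in the knockdown library, against 137 FPKM (109 to 156) in the control. Chrnb1, for the beta subunit, was at 38.5, 35.1 and 41 FPKM in the starved, knockdown and control libraries, and Chrnd, for the delta subunit, at 12.1, 7.87 and 8.83 FPKM. The intervals of these 3 genes overlapped in both comparisons. Chrng and Chrnd are neighbours on chromosome 1 with 0 coding genes between them in the RefSeq order, yet had log2 fold changes of 1.10 and -0.15 in the knockdown library. Chrng made up 3.41%, 7.95% and 3.0% of the FPKM of the 4 subunit genes in the starved, knockdown and control libraries, with a range of 5.44% to 11.6% from the deposited limits in the knockdown library and of 2.07% to 4.46% in the control. Chrne, for the epsilon subunit that replaces gamma in adult muscle, was at 0.0305 FPKM or less in each library.

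Among the remaining genes, Ckm, the muscle creatine kinase gene, had the largest plain ratio. It was at 0.374 FPKM (0.173 to 0.570) in the starved and 2.67 FPKM (1.93 to 3.40) in the knockdown library, against 0.324 FPKM (0.10 to 0.525) in the control, so the knockdown library was 8.26 times the control with intervals apart. Ckm was the 1 gene under 1 FPKM in the control that passed the filter, and it did so through the knockdown library, so it had to be higher there. Mb, the myoglobin gene, was at 0.234, 1.48 and 0.520 FPKM in the starved, knockdown and control libraries, with overlapping intervals. Cdh15, which encodes M-cadherin, an adhesion protein of myoblasts, was at 112 FPKM (84.1 to 126) in the starved and 55.6 FPKM (42.3 to 69.6) in the knockdown library, against 73.5 FPKM (59.0 to 91.1) in the control. Its log2 fold changes of 0.60 and -0.40 were the highest of the 28 genes in the starved and the lowest in the knockdown comparison, and the intervals overlapped the control in both.

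**Figure D5:**
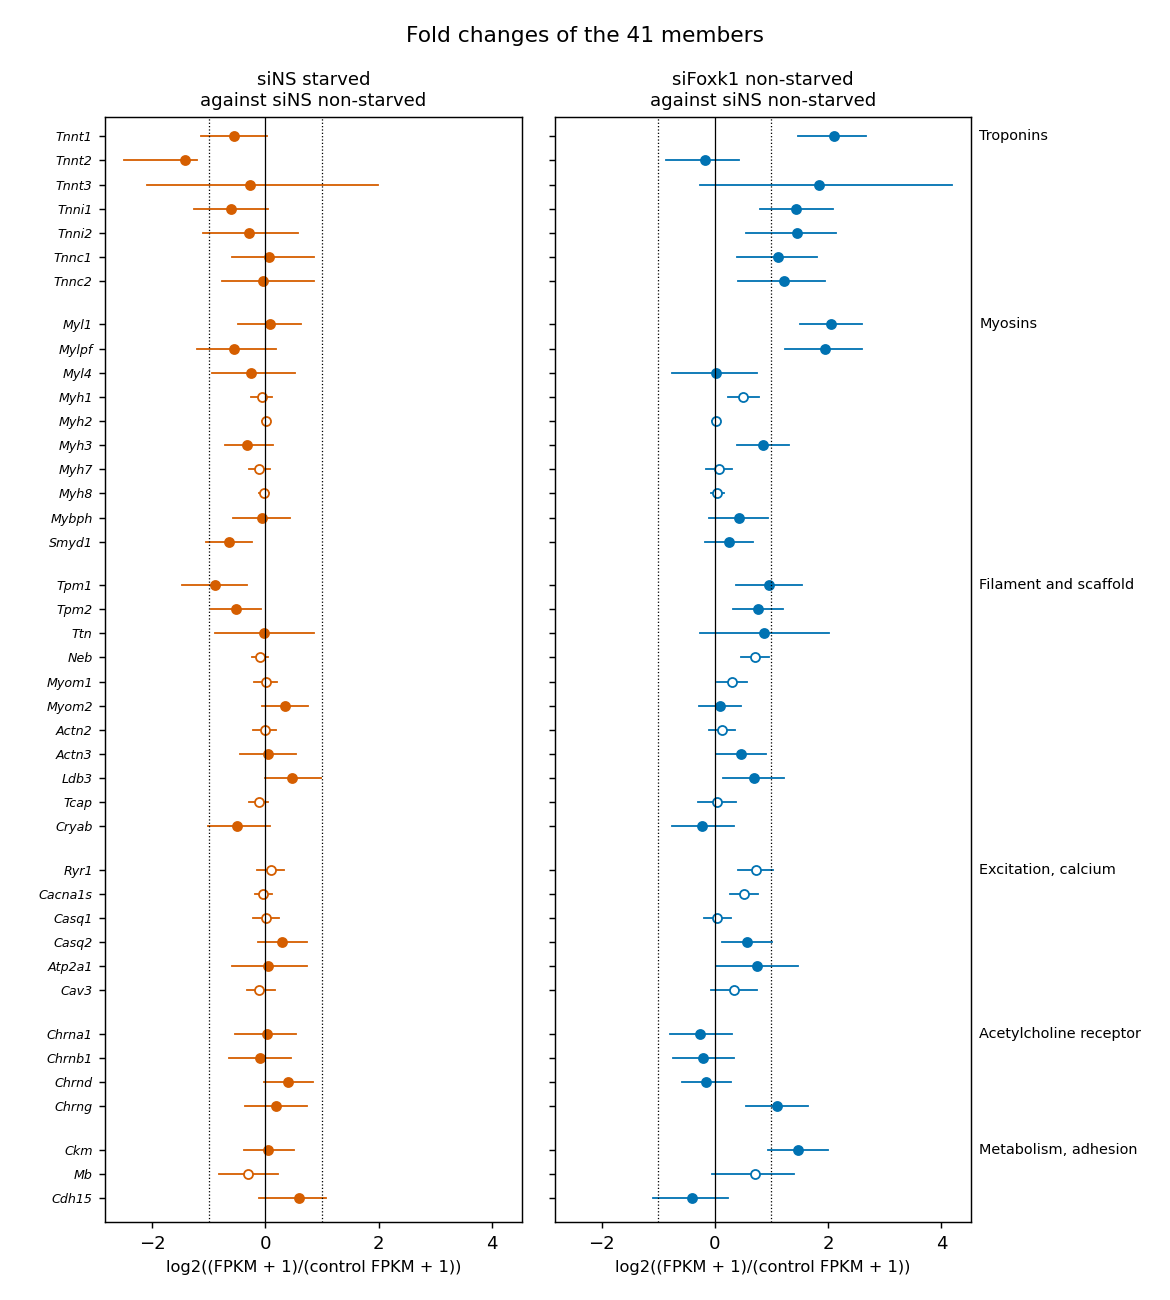
Log2((FPKM + 1)/(control FPKM + 1)) of all 41 genes in the starved (left) and Foxk1 knockdown (right) libraries, with lines from the lowest to the highest value the deposited limits allow, dotted lines at 2-fold and open symbols for the 13 genes under the filter. The 10 genes right of the dotted line in the knockdown panel are 6 troponin genes, Myl1, Mylpf, Chrng and Ckm, and Tnnt2 is left of it in the starved panel.

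The 13 genes under the filter reached at most 0.556 FPKM in the starved, 1.48 FPKM in the knockdown and 0.520 FPKM in the control library. Of these, 5 had a knockdown interval above that of the control (Myh1, Neb, Myom1, Ryr1 and Cacna1s) and 0 below it, beside 1.38% and 1.36% of all 11340 rows under the filter, which also include rows at 0. In the starved library 0 of the 13 were apart in either direction, beside 1.97% higher and 0.873% lower of those rows. No gene of the 41 was at 0 FPKM in any library, and 26, 31 and 27 of the 41 reached 1 FPKM in the starved, knockdown and control libraries.

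Other muscle genes, outside the 41, were followed in 7 lists with 93 distinct rows, of which 54 passed the filter. These lists, too, were chosen with earlier results of these data known. In the knockdown library 8 of the 54 were 2-fold higher, beside 2.57% of all rows, and 1 was 2-fold lower, beside 1.42%. By intervals 22 were higher there, beside 8.78% of all rows, and 3 were lower, a count near the 7.06% of all rows. The 8 and the 22 both include Trdn, which passed the filter through the knockdown library, so it had to be higher there. In the starved library 0 were 2-fold higher and 3 lower, beside 3.08% and 2.96% of all rows. By intervals 4 were higher and 9 lower there, counts near the 11.9% and 11.1% of all rows. Their median log2 fold change was -0.18 for the starved library and 0.43 for the knockdown library. Of 9 thin filament genes that passed, Acta1, for skeletal actin, had 4.81 FPKM in the starved and 39.0 FPKM in the knockdown library, against 6.59 FPKM in the control, and Actc1, for cardiac actin, had 3.70 and 23.3 FPKM, against 7.16 FPKM. Both actins were thus high in the knockdown library, as was not the case for the tropomyosin gene Tpm3 (log2 fold change 0.19 there and -0.65 in the starved library). Of the genes of the actin-binding Xin proteins, Xirp2 was 2-fold lower in the knockdown library (log2 fold change -1.12, at 0.261 FPKM against 1.75 FPKM in the control), and Xirp1 was 2-fold lower in the starved library (-1.13, at 0.561 FPKM against 2.43 FPKM in the control), both with intervals apart.

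Of 14 Z-disc and costamere genes, 3 were 2-fold higher in the knockdown library, beside 2.57% of all rows. These were the scaffold genes Pdlim3 (log2 fold change 1.61), Pdlim5 (1.28) and Synpo2 (1.2). Synpo2l was 2-fold lower in the starved library (-1.04), beside 2.96% of all rows. By intervals 8 of the 14 were higher in the knockdown library, beside 8.78%, and 1 was lower, near the 7.06% of all rows. In the starved library 1 was higher and 1 lower by intervals, beside 11.9% and 11.1%. Among 13 excitation and calcium genes, the junctional membrane gene Jph2 was at 14.0 FPKM in the starved and 52.2 FPKM in the knockdown library, against 28.1 FPKM in the control, apart in both comparisons. Its paralog Jph1 had log2 fold changes of 0.71 and 0.27 in the starved and knockdown libraries. The calcium channel subunit genes Cacng1 and Cacna2d1 had 0.66 and 0.60 in the knockdown library, with intervals apart. Trdn, the triadin gene, was the gene of this list that was 2-fold higher there (1.06), at 0.375 FPKM in the starved and 2.26 FPKM in the knockdown library, against 0.564 FPKM in the control, and it passed the filter through the knockdown library.

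Of 6 genes that organise the nerve-muscle synapse, 2 were higher and 1 lower by intervals in the starved library, beside 11.9% and 11.1% of all rows, and 2 were higher in the knockdown library, beside 8.78%. The gene that was lower after starvation was Dok7, an activator of the receptor kinase, at 0.751 FPKM in the starved and 2.19 FPKM in the knockdown library, against 1.58 FPKM in the control. The receptor kinase gene Musk was at 17.3 FPKM in the starved and 17.4 FPKM in the knockdown library, against 10.3 FPKM in the control, apart in both. Rapsn, whose protein clusters the receptor, was at 56.8, 44.7 and 32.0 FPKM in the starved, knockdown and control libraries, apart in the starved one, and the agrin receptor gene Lrp4 was at 6.64, 10.00 and 5.15 FPKM, apart in the knockdown one. Of 5 muscle metabolism genes, 0 were 2-fold higher or lower, and the muscle enolase gene Eno3 had a log2 fold change of -0.79 in the knockdown library, with intervals apart, while Pfkm and Phka1 overlapped in both. Of 3 further thick filament genes none was 2-fold higher or lower, and Obsl1 (-0.73 in the starved library) was apart there and Myl6b was not.

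Regulators and fusion genes stood beside these values. Myog, which encodes myogenin, was at 6.02 FPKM in the starved and 45.4 FPKM in the knockdown library, against 14.2 FPKM in the control, with intervals apart in both comparisons. Myod1, which encodes MyoD, was at 10.7 FPKM (8.49 to 12.8) in the starved and 95.8 FPKM (76.9 to 114) in the knockdown library, against 70.1 FPKM (57.6 to 82.3) in the control, so the starved library was apart and the knockdown library was not. Mef2c, the gene of a MEF2 factor, was at 1.36 FPKM in both the starved and the knockdown library, against 1.84 FPKM in the control, with overlapping intervals. Tmem8c, the gene of the fusion protein myomaker, had log2 fold changes of -0.45 and 1.26 in the starved and knockdown libraries.

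Several markers of smooth muscle were also higher in the knockdown library. Of 8 listed, 6 passed the filter, and 5 were higher by intervals in the knockdown library, beside 8.78% of all rows. Of these 5, 4 were 2-fold higher, beside 2.57%. Both counts include Lmod1, which passed the filter through the knockdown library, so it had to be higher there. In the starved library 4 of the 6 were lower by intervals, beside 11.1% of all rows. Their summed level was 207 FPKM in the starved and 1842 FPKM in the knockdown library, against 507 FPKM in the control, most of it from the actin gene Acta2 and from Tagln. Myh11, the smooth muscle myosin gene that defines the type, was at 0.0144 FPKM or less in every library. The smooth muscle regulator gene Myocd, under the filter, was at 0.410 FPKM in the starved library. It was at 0.0833 FPKM (0.0285 to 0.14) in the knockdown library, below the control at 0.294 FPKM (0.195 to 0.393) with intervals apart. Smtn, which passed the filter, was at 40.6 FPKM in the knockdown library against 44.5 FPKM in the control, with overlapping intervals. The 8 cardiac markers summed to 6.06, 6.56 and 13.0 FPKM in the starved, knockdown and control libraries, and 3 of them passed the filter. Most of the control sum came from Nppb, at 3.28, 3.35 and 10.5 FPKM in that order, 2-fold lower with intervals apart in both comparisons. The other markers that passed, Tnni3 (1.04, 1.90 and 1.03 FPKM) and Nkx2-5 (1.59, 1.21 and 1.46 FPKM), overlapped the control in both. Fibroblast markers summed to 241, 418 and 287 FPKM in the same order, and of the 4 that passed, 2 were higher by intervals in the knockdown library, beside 8.78% of all rows, 1 of them 2-fold (Dcn, the decorin gene). Adipocyte markers summed to 15.9, 22.2 and 16.2 FPKM, bone and cartilage markers to 39.4, 56.0 and 59.7 FPKM and immune markers to 4.20, 1.37 and 2.60 FPKM, with Plin1, Ibsp and Cd3e at 0 in all 3 libraries. The part of these marker genes in the sarcomere values was not tested.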

How the data were processed

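The deposited tables give FPKM per row of gene symbols, as a mean with the limits of a 95% interval, per the file headers. The sources used here do not give the annotation, the origin of the intervals or whether the mean pools replicates. Among tools, the submitters' processing notes name Cufflinks 2.1.1 and Cuffdiff, and TopHat2 2.0.9 with Bowtie2 2.1.0, without saying what each did, and mm9 as the build. Libraries were grouped by their titles, and the FPKM values the authors deposited were used without rescaling. Of 22989 rows, 364 rows of several symbols, 388 rows of repeated symbols and 1 row with limits in the wrong order were left out of the background, which leaves 22291, since some rows are of both kinds. Rows with a mean of 1 FPKM or more over the 3 libraries were kept (10951), the fold change was log2((FPKM + 1)/(control FPKM + 1)), which understates the change of low genes, and 2-fold was the threshold. With 1 library per group nothing was tested. The depth is unknown, so no counting interval is given, and the deposited intervals are the measure of precision.

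Genes that reach 5 FPKM in any library are given in full, the others by range or where they stood out, and up to 4 genes at 5 FPKM or more are named from each further list, by size of change. Trdn, Xirp1, Xirp2, Dok7, Mef2c and the marker genes were named in addition after their values were seen, and some genes of the further lists are not reported here. The genes and lists were chosen with earlier results of these data known. The fold rule was checked on simulated data. Promoter windows come from RefSeq, build GRCm38.p6, and no coordinates were converted from mm9. The ChIP-seq samples of the series were not used here. Python 3.11.15, numpy 2.4.6, pandas 2.3.3 and matplotlib 3.10.9 were used.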

Additional observations from a re-analysis of the deposited data

How the results depend on the processing

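Other pseudocounts, filters, scalings, fold thresholds and call rules were tried. With a pseudocount of 5 the genes 2-fold higher in the knockdown library numbered 5, and at 1.5-fold 16 were higher there. At 1.5-fold in the starved library 1 gene (Cdh15) was higher and 4 (Tnnt2, Tpm1, Smyd1 and Tnni1) were lower. Scaling to the upper quartile or to the sum of FPKM, tried for interval calls after the data were seen, gave 2 (Chrnd and Ldb3) and 3 genes (these and Myom2) higher apart in the starved library. The median of the starved comparison was 0.02 with the sum scaling, against -0.05, while that of the knockdown comparison ranged from 0.40 (pseudocount 5) to 0.92 (pseudocount 0.1). The other counts stayed within 1.5 times. Of 328 single-gene values under other pseudocounts and scalings, 304 were inside the range the deposited limits allow and 7 changed sign, from a size of 0.09 or less. No paired analysis was possible because each group had 1 library. The unknown depth limits what can be said of genes under 1 FPKM.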
